A study of Mus musculus with 22 samples.

Results

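10 genes of the epithelial-mesenchymal transition (EMT) were followed in 16 mouse RNA libraries. They were taken by name, as 10 of the 46882 genes in the deposited table. 7 are transcription factors of the program (Snai1, Snai2, Twist1, Twist2, Zeb1, Zeb2 and Prrx1) and 3 are proteins whose RNA rises in mesenchymal cells (Vim, Cdh2 and Fn1). EMT is the program by which epithelial cells loosen their junctions, exchange keratins and E-cadherin for vimentin and N-cadherin, and become motile. SNAI and ZEB factors are zinc-finger repressors that bind E-boxes in promoters of epithelial genes such as Cdh1, TWIST factors are basic helix-loop-helix proteins, and PRRX1 is a homeodomain protein of mesenchyme. Fibroblasts, macrophages and endothelial cells also make many of these RNAs, so in whole tissue they do not mark tumor cells alone.

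The study asked how far selection by T cells edits a transplanted colon carcinoma. MC38 is a chemically induced C57BL/6 mouse colon adenocarcinoma line, labelled C57BL/6N here, and 2 libraries came from the cells before injection (day 0). Skin was given by wild-type C57BL/6N mice of day 23 (2 libraries). Tumors grew after subcutaneous injection of the cells into wild-type C57BL/6N mice (day 23 and day 46, 3 libraries each) or into B6.129S7-Rag1tm1Mom/J mice labelled RAG1-/- (day 13 and day 23, 3 libraries each), which lack mature T and B cells. The mice were 8 to 12 weeks old. All tumors came from 1 cell line and were sequenced as whole tissue with host cells, although the label calls them tumor cells. In such bulk samples fewer cells of a type and less RNA per cell cannot be told apart.

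The libraries held 5589151 to 26134241 reads on genes, and 3 reads, taken as the floor, were worth 1.33 to 6.38 normalized counts. The labels do not say whether the MC38 libraries are separate cultures, so a p-value may there measure technical spread only. Skin replicate 2 stood apart. Of 63 genes with at least 100 normalized counts in both MC38 libraries and at most 3 reads in skin replicate 1, 51 had more than 3 reads in skin replicate 2, at a median of 6.48% of their MC38 level. The skin comparisons are therefore also given without it. Wild-type tumor replicate 2 of day 23 held keratinocyte RNA (summed markers 1909, against 230 to 700.4 in the other tumors), and replicates 1 and 3 of day 13 labelled RAG1-/- held skeletal muscle RNA (8953 and 9301, against 68.1 to 1427). Rag1 itself had 1 to 12 reads in each of the 6 libraries labelled RAG1-/- and at most 1 read in wild-type tumors. Reads of the targeted gene were thus present under that label. These are 3′ tags, and whether they lie in the deleted part is not given in the sources used here, so they do not check the genotype. Summed T cell markers were 33.2 to 204 in wild-type tumors and 3.93 to 39.1 in those labelled RAG1-/-.

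The E-box that SNAI and ZEB zinc fingers bind was sought in the 250 bases before each annotated start (RefSeq, GRCm38.p6) as CACCTG or CAGGTG, which are the 2 strands of the same motif. It was present in 17.2% of 32851 promoters. Among the EMT genes 6 had a promoter entry (9 promoters), and only Snai1 held the motif, 1 of 9 promoters (11.1%). Among 25 epithelial genes listed for comparison 15 had an entry, and 10 of these held it (12 of 20 promoters, 60%). The promoters of Snai1, of Epcam (an epithelial adhesion molecule) and of Crb3 (an apical polarity protein) are shown because they set the only EMT gene with the motif beside 2 epithelial genes with several. Capitals mark the motif.
Snai1, chr2:167537945-167538194, plus strand, motif starting at position -126: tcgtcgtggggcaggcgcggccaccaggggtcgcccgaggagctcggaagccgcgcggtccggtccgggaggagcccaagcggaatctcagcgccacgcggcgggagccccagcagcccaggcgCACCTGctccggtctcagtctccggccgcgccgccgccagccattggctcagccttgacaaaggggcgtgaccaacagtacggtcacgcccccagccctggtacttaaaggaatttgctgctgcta
Epcam, chr17:87635729-87635978, plus strand, motifs starting at -187 and -19: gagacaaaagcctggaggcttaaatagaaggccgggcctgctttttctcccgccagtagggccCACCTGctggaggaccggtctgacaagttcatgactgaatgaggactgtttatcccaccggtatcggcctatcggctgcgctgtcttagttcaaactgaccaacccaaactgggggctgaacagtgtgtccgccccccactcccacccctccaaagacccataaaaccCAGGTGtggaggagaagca
Crb3, chr17:57061951-57062200, plus strand, motifs starting at -118, -63 and -7: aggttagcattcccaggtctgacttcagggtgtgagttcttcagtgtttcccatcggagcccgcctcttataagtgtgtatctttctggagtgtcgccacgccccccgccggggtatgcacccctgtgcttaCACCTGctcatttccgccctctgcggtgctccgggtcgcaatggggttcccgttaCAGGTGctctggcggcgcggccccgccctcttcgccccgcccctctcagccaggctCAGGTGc
Positions count back from the annotated start. A match is a run of letters, not a bound site, and binding was not measured.

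MC38 cells carried RNA of all 10 EMT genes and almost none of the epithelial genes. The fewest reads of any of the 10 in any library were 9, for Cdh2 in skin replicate 1. Of the 25 epithelial genes, 18 had at most 3 reads in both MC38 libraries, and their summed level was 43.6 to 70.4 normalized counts, against 51881 to 60021 in skin. Cdh1, which encodes E-cadherin, had at most 1 read in MC38 cells and stood at 2392 and 3319.6 in skin. Epcam had at most 4 reads in MC38 cells and stood at 2185 and 2819.9 in skin. Keratin 8 and keratin 18 genes (Krt8, Krt18) had at most 5 and 0 reads. Of 8 colon epithelium markers 5 were at or under 3 reads in both MC38 libraries, and Cdx1, Lgr5 and Gpa33 had at most 5, 5 and 4. The 8 summed to 7.70 and 11.7 normalized counts. The labelled colon carcinoma thus showed few of its defining epithelial RNAs, and these colon markers only near the floor. All 10 EMT genes passed the filter of a mean of 5 normalized counts in every fit.

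**Figure D1:**
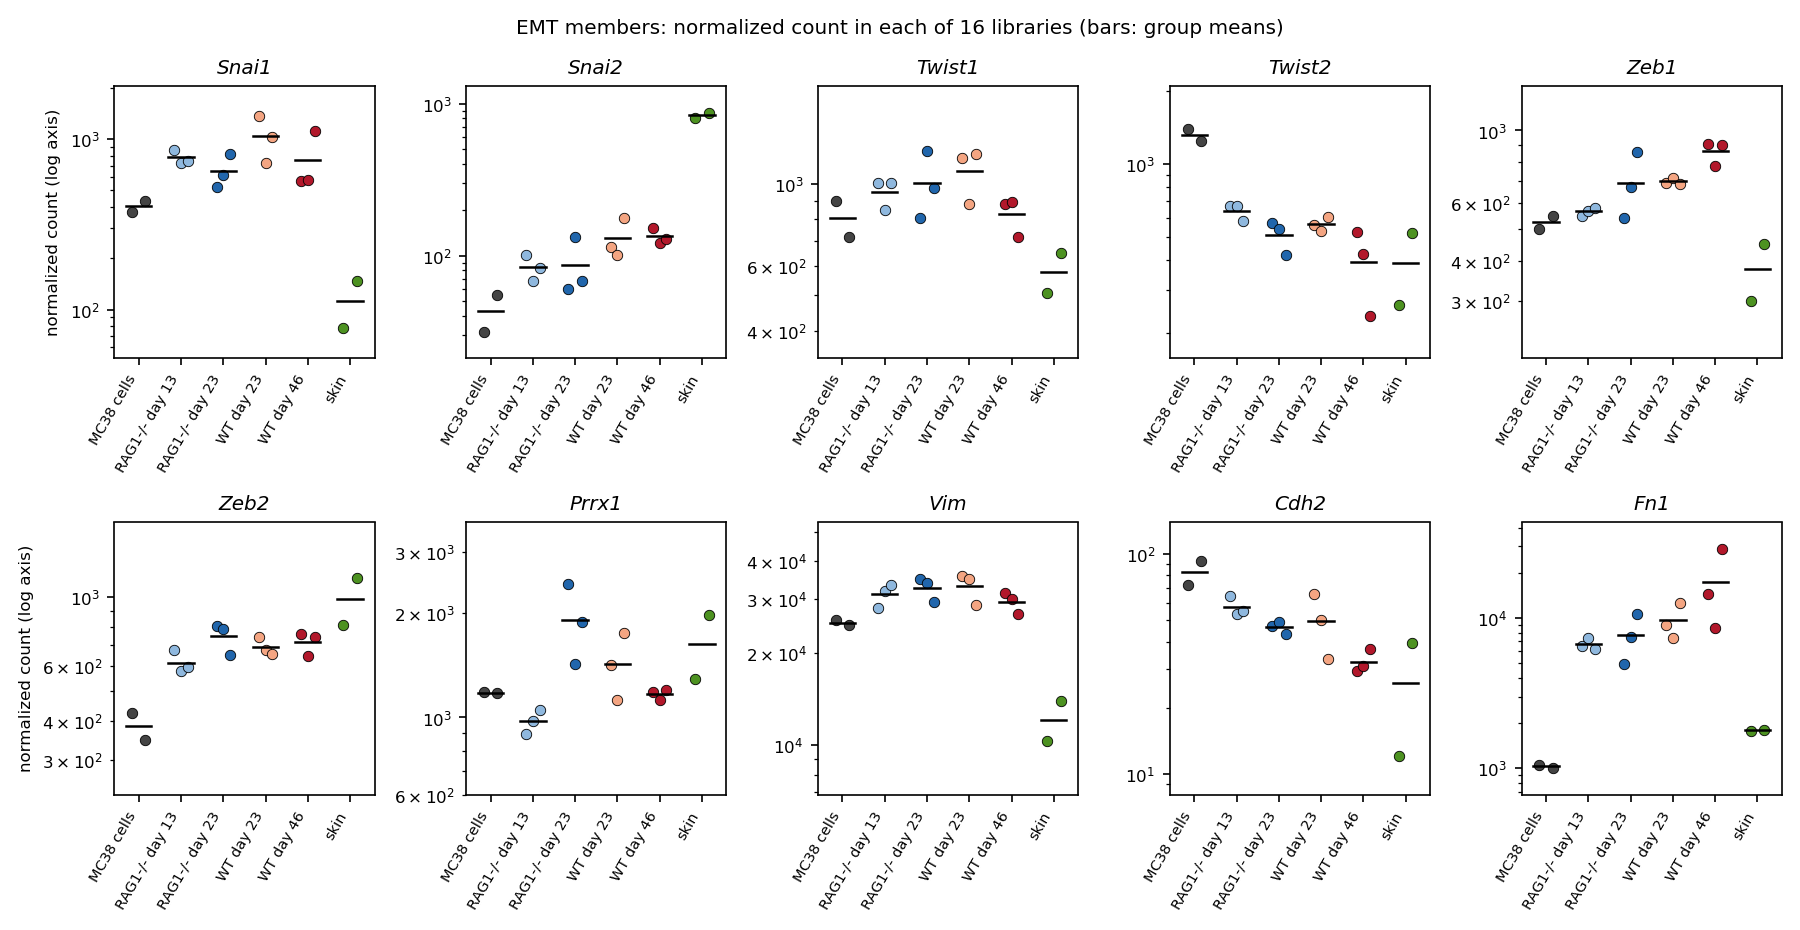
Normalized count (log axis) of the 10 EMT genes in each of 16 libraries, by group, with bars at group means. Snai2 is highest in both skin libraries (808 and 872), Twist2 and Cdh2 are highest in MC38 cells, and Fn1 is at 4958 to 28825 in the 12 tumors and at 999 to 1787 elsewhere.

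Against skin, 4 of the 10 genes were higher in MC38 cells (Snai1, Twist2, Vim and Cdh2) and 3 lower (Snai2, Zeb2 and Fn1), by limma on log2(normalized count + 1) with Benjamini-Hochberg adjustment over all 16780 genes tested. Of all genes 20.8% were higher and 41.2% lower. The median log2 fold change was 0.49 over the 10 and -0.40 over all genes. Rescaling the libraries to the same total moved the median of all genes to 0.043 and the split of all calls from 3482 higher and 6920 lower to 4997 and 5593, and 6 of the 10 EMT genes were then higher and 3 lower. Without skin replicate 2, 3 were higher and 1 lower, and without skin replicate 1, 1 was higher and 2 lower, while calls over all genes dropped to 2338 higher and 4120 lower, and to 2222 and 4031. With 2 libraries against 2 an exact permutation test cannot go below 0.333, the value all 10 genes gave.

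Against the MC38 cells they grew from, wild-type tumors had 5 of the 10 genes higher (Snai1, Snai2, Zeb1, Zeb2 and Fn1) and 2 lower (Twist2 and Cdh2), where 18.3% of 14708 genes were higher and 9.61% lower. The median log2 fold change was 0.44 over the 10 and 0.045 over all genes. Tumors labelled RAG1-/- had 4 higher (Snai1, Snai2, Zeb2 and Fn1) and 1 lower (Twist2), where 15.8% of genes were higher and 7.55% lower, with medians of 0.31 over the 10 and 0.058 over all genes. These contrasts share the MC38 libraries. Without MC38 replicate 1 they held 2 higher and 1 lower each, while calls over all genes dropped from 2687 higher and 1413 lower to 1769 and 525 in wild-type tumors, and from 2317 and 1111 to 1550 and 410 in those labelled RAG1-/-. Without replicate 1 of day 13 the tumors labelled RAG1-/- also had 3 genes called, with 2142 higher and 978 lower over all genes. With 6 tumors against 2 libraries the smallest exact permutation p is 0.0714.

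Against skin, wild-type tumors had 5 of the 10 genes higher (Snai1, Twist1, Zeb1, Vim and Fn1) and 2 lower (Snai2 and Zeb2), where 22.8% of 16259 genes were higher and 34.2% lower. Tumors labelled RAG1-/- had these 5 and Cdh2 higher and the same 2 lower, where 23.9% of genes were higher and 35.9% lower. The medians of the 10 were 0.76 and 0.75, and those of all genes -0.18 and -0.20. Without skin replicate 2 the counts were 6 higher and 1 lower, and 7 higher and 1 lower. Without skin replicate 1 they were 4 higher and 2 lower, and 3 higher and 2 lower. Over all genes wild-type tumors had 3031 higher and 4205 lower calls without replicate 2 and 2948 and 4160 without replicate 1. Those labelled RAG1-/- had 3173 and 4498, and 3067 and 4441. Rescaling to the same total gave 7 higher and 1 lower in both contrasts, with medians of all genes at 0.23 and 0.21, and turned the split of all calls from 3708 higher and 5554 lower to 5504 and 4039 in wild-type tumors, and from 3879 and 5842 to 5643 and 4326 in those labelled RAG1-/-.

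**Figure D2:**
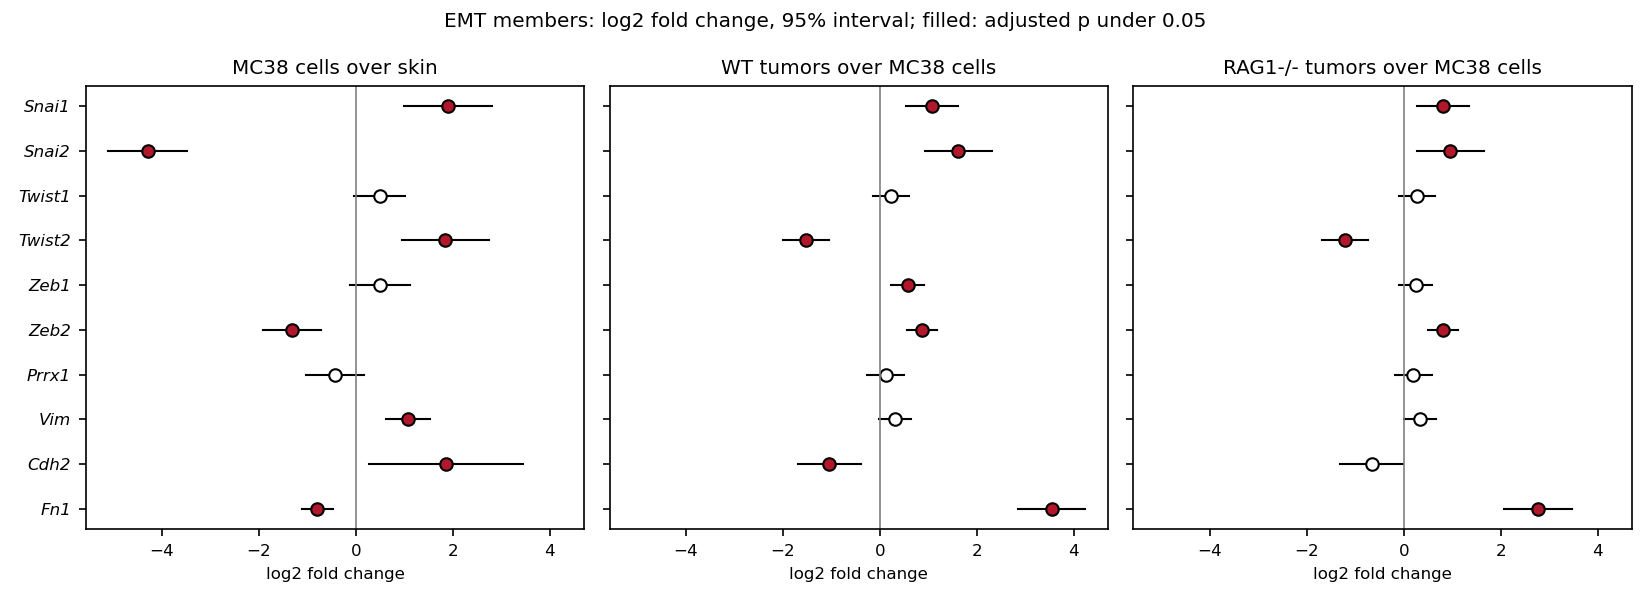
log2 fold change of each gene with its 95% interval for MC38 cells over skin, wild-type tumors over MC38 cells and tumors labelled RAG1-/- over MC38 cells. Filled points passed an adjusted p of 0.05 (limma). Snai2, Zeb2, Fn1 and, with open points, Prrx1 lie below 0 on the left panel and above 0 on the others. The MC38 libraries enter all panels, so these opposite signs are not independent results.

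Snai1 encodes SNAIL, a zinc-finger repressor of Cdh1 (chr2:167538195-167542814, plus strand). Its normalized counts were 374 and 435 in the MC38 libraries, 77.7 and 147 in skin, 1368, 725 and 1036 in wild-type tumors of day 23, 569, 573 and 1123 in those of day 46, 869.7, 729 and 747 in tumors labelled RAG1-/- of day 13 and 524, 613 and 814 in those of day 23. All 12 tumors lay above both MC38 libraries, which lay above both skin libraries, while the 4 tumor groups overlapped. MC38 cells exceeded skin by a log2 fold change of 1.91 ± 0.35 (SE), adjusted p = 0.00755 (limma). Without skin replicate 2 the difference was 2.36, adjusted p = 0.0336, and without replicate 1 it was 1.45, adjusted p = 0.0511. Over MC38 cells it was 1.07 ± 0.26 (SE), adjusted p = 0.00433 in wild-type tumors, with adjusted p = 0.0793 without MC38 replicate 1. In tumors labelled RAG1-/- it was 0.81 ± 0.26 (SE), adjusted p = 0.0301, and this call was lost in 10 of 25 alternatives, at adjusted p up to 0.235.

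Snai2 encodes SLUG, its close relative, which skin keratinocytes and neural crest cells also make (chr16:14705852-14709385, plus strand). Its normalized counts were 31.7 and 54.7 in the MC38 libraries, 808 and 872 in skin, 114, 101 and 176 in wild-type tumors of day 23, 151, 121 and 129 in those of day 46, 102, 67.8 and 82.9 in tumors labelled RAG1-/- of day 13 and 60.2, 132 and 67.6 in those of day 23. Both skin libraries were far above everything else, and all tumors were above both MC38 libraries. The difference of MC38 cells to skin was -4.30 ± 0.31 (SE), adjusted p = 0.000434 (limma), with a 95% interval of -5.11 to -3.49. It was -4.24 without skin replicate 2, where adjusted p = 0.0579 with 3 libraries left, and -4.35 without replicate 1, adjusted p = 0.0575. Over MC38 cells, wild-type tumors were 1.62 ± 0.33 (SE), adjusted p = 0.00111, which became adjusted p = 0.0618 without MC38 replicate 1. Those labelled RAG1-/- were 0.96 ± 0.33 (SE), adjusted p = 0.0422. The latter call was also lost in 10 of 25 alternatives, at adjusted p up to 0.444. Snai1 and Snai2 thus differed in opposite directions between MC38 cells and skin, and in the same direction between tumors and MC38 cells.

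Twist1 (chr12:33957671-33959829, plus strand) and Twist2 (chr1:91801461-91848028, plus strand) encode related basic helix-loop-helix factors of mesoderm. Twist1 stood at 898 and 717 in the MC38 libraries, 505 and 649 in skin, 1171, 881 and 1203 in wild-type tumors of day 23, 881, 891 and 716 in those of day 46, 1004, 849 and 1001 in tumors labelled RAG1-/- of day 13 and 805, 1226 and 974 in those of day 23. The tumors spanned the MC38 levels, and both lay above skin. Its difference between MC38 cells and skin was 0.49 ± 0.20 (SE), adjusted p = 0.0943 (limma), and passed under 4 of 15 alternatives, those that rescale the libraries or test the reads. Against skin, Twist1 was higher in wild-type tumors by 0.72 ± 0.18 (SE), adjusted p = 0.00357, and in those labelled RAG1-/- by 0.76 ± 0.18 (SE), adjusted p = 0.00233. Both calls were lost without skin replicate 1, at adjusted p = 0.0826 and 0.0619 by limma.

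Twist2 stood at 1398 and 1244 in the MC38 libraries, 261 and 516 in skin, 559.8, 528 and 602 in wild-type tumors of day 23, 524, 425 and 236 in those of day 46, 667, 669 and 578 in tumors labelled RAG1-/- of day 13 and 568.2, 536 and 422 in those of day 23. It was the only one of the 7 transcription factors that fell from MC38 cells to the tumors, where its highest level was 669. The log2 fold change was -1.52 ± 0.22 (SE), adjusted p = 4.29e-05 in wild-type tumors and -1.22 ± 0.22 (SE), adjusted p = 0.000504 in those labelled RAG1-/- (limma). Both calls held in 25 of 25 alternatives. MC38 cells exceeded skin by 1.84 ± 0.35 (SE), adjusted p = 0.00813, in 15 of 15 alternatives. Antisense gene Gm29100 overlaps 46.5% of the exonic bases of Twist2 but none of its last 500, where these 3′ tags fall, and the strand setting of the counts is not given in the sources used here. The skin libraries differed from each other (261 and 516), and wild-type tumors against skin gave 0.32 with both and -0.17 without replicate 1.

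Zeb1 and Zeb2 (the latter at chr2:44983632-45117395, minus strand) encode large zinc-finger homeobox repressors that the miR-200 family holds down in epithelia. Zeb1 stood at 501 and 546 in the MC38 libraries, 301 and 450.0 in skin, 692, 718 and 688 in wild-type tumors of day 23, 912, 781 and 902 in those of day 46, 549, 566 and 581 in tumors labelled RAG1-/- of day 13 and 541, 672 and 856 in those of day 23. All 6 wild-type tumors were above MC38 cells, and 1 of those labelled RAG1-/- lay within the MC38 range. Wild-type tumors exceeded MC38 cells by 0.57 ± 0.16 (SE), adjusted p = 0.0122 (limma), a call lost without either MC38 replicate (adjusted p = 0.141 and 0.0671). In tumors labelled RAG1-/- the value was 0.24 ± 0.16 (SE), adjusted p = 0.301. Over skin, Zeb1 was higher in wild-type tumors (1.07 ± 0.18 (SE), adjusted p = 0.000134) and in those labelled RAG1-/- (0.75 ± 0.18 (SE), adjusted p = 0.00222). The latter was 0.46, adjusted p = 0.0744, without skin replicate 1.

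Zeb2 stood at 425 and 349 in the MC38 libraries, 812 and 1151 in skin, 746, 675 and 656 in wild-type tumors of day 23, 758, 648 and 744 in those of day 46, 675, 577 and 594 in tumors labelled RAG1-/- of day 13 and 804, 789 and 651 in those of day 23. The order was skin, tumors, MC38 cells, with no overlap between these 3 kinds of sample. MC38 cells were lower than skin, at a log2 fold change of -1.33 ± 0.23 (SE), adjusted p = 0.00622 (limma), and without skin replicate 2 the value was -1.07, adjusted p = 0.0837 (0.0581 without replicate 1). Tumors exceeded MC38 cells by 0.87 ± 0.15 (SE), adjusted p = 0.000225 in wild-type mice, and by 0.81 ± 0.15 (SE), adjusted p = 0.000505 in those labelled RAG1-/-, in 25 of 25 alternatives each. Tumors were lower than skin, at log2 fold changes of -0.46 and -0.51 (limma, adjusted p = 0.0186 and 0.00934), and without skin replicate 2 these were -0.21 and -0.26, adjusted p = 0.298 and 0.181. With the same total they were -0.062 and -0.11, adjusted p = 0.767 and 0.581. Macrophages are known to make Zeb2. Of 12 macrophage markers, 10 had at most 3 reads in each MC38 library, and their summed level was 44.5 to 69.4 in MC38 cells, 14473 to 14885 in skin, 25173 to 38099.9 in wild-type tumors and 19013 to 31361 in those labelled RAG1-/-. Their part in the Zeb2 difference was not tested.

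Prrx1, a homeobox gene of limb and connective tissue mesenchyme (chr1:163245119-163313710, minus strand), stood at 1182 and 1174 in the MC38 libraries, 1289 and 1972 in skin, 1418, 1122 and 1745 in wild-type tumors of day 23, 1186, 1125 and 1198 in those of day 46, 899, 978 and 1054 in tumors labelled RAG1-/- of day 13 and 2427, 1426 and 1884 in those of day 23. MC38 cells lay inside the range of the tumors and below skin. None of the 5 contrasts with MC38 cells or skin passed, and the differences were between -0.44 and 0.20 on the log2 scale (limma, adjusted p = 0.159 for MC38 cells against skin). The highest group was tumors labelled RAG1-/- of day 23 and the lowest those of day 13, which did not overlap.

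Vim encodes vimentin, the intermediate filament of mesenchymal cells (chr2:13573927-13582826, plus strand). It stood at 25666 and 24659 in the MC38 libraries, 10301 and 13890.3 in skin, 35699.8, 34989.6 and 28764 in wild-type tumors of day 23, 31385, 30047 and 26931 in those of day 46, 28117, 31911 and 33414 in tumors labelled RAG1-/- of day 13 and 35073, 33894 and 29327 in those of day 23. All 12 tumors lay above both MC38 libraries and these above both skin libraries. MC38 cells exceeded skin by 1.07 ± 0.18 (SE), adjusted p = 0.00531 (limma), and without skin replicate 1 by 0.86, adjusted p = 0.0551. The tumors were above skin by 1.38 ± 0.18 (SE), adjusted p = 1.66e-05 in wild-type mice and by 1.41 ± 0.18 (SE), adjusted p = 1.21e-05 in those labelled RAG1-/-. Over MC38 cells they gave 0.31 ± 0.16 (SE), adjusted p = 0.158, and 0.34 ± 0.16 (SE), adjusted p = 0.129, neither past the threshold, with 95% intervals of -0.021 to 0.64 and 0.012 to 0.67.

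Cdh2 encodes N-cadherin, which replaces E-cadherin in many cells that undergo EMT. It stood at 72.7 and 92.9 in the MC38 libraries, 12.1 and 39.5 in skin, 65.6, 50.3 and 33.3 in wild-type tumors of day 23, 29.3, 30.9 and 37.0 in those of day 46, 64.2, 53.4 and 55.3 in tumors labelled RAG1-/- of day 13 and 47.1, 48.9 and 43.3 in those of day 23, on 9 to 98 reads a library. Both MC38 libraries were above all tumors, and the skin libraries differed more than 3-fold from each other. MC38 cells exceeded skin by 1.85 ± 0.61 (SE), adjusted p = 0.0494 (limma), a call that held in 8 of 15 alternatives. Without skin replicate 2 the difference was 2.67, adjusted p = 0.0502, and without replicate 1 it was 1.04, adjusted p = 0.134. Wild-type tumors were lower than MC38 cells, at a log2 fold change of -1.04 ± 0.31 (SE), adjusted p = 0.0173, and without MC38 replicate 1 or 2 adjusted p = 0.0664 and 0.213. Tumors labelled RAG1-/- gave -0.66 ± 0.31 (SE), adjusted p = 0.138. These were above skin by 1.19 ± 0.41 (SE), adjusted p = 0.0224, and without skin replicate 1 by 0.38, adjusted p = 0.443.

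Fn1 encodes fibronectin, a matrix glycoprotein made by fibroblasts, macrophages, endothelium and some carcinoma cells (chr1:71585520-71653200, minus strand). It stood at 1056 and 999 in the MC38 libraries, 1780.3 and 1787 in skin, 9010.1, 7393 and 12549 in wild-type tumors of day 23, 14383, 8622 and 28825 in those of day 46, 6466, 7401 and 6259 in tumors labelled RAG1-/- of day 13 and 4958, 7424 and 10668 in those of day 23. Each tumor was above both skin libraries, and these were above both MC38 libraries. It had the highest rise of the 10 from MC38 cells to tumors, 3.55 ± 0.33 (SE), adjusted p = 1.49e-07 in wild-type mice (11.7-fold) and 2.77 ± 0.33 (SE), adjusted p = 4.30e-06 in those labelled RAG1-/- (6.81-fold), both in 25 of 25 alternatives (limma). Tumors were also above skin, by 2.75 ± 0.36 (SE), adjusted p = 1.56e-05, and 1.97 ± 0.36 (SE), adjusted p = 0.000281. MC38 cells were lower than skin, at a log2 fold change of -0.80 ± 0.12 (SE), adjusted p = 0.00392, in 13 of 15 alternatives, with adjusted p = 0.0517 without MC38 replicate 2. Summed fibroblast markers stood at 5394 to 6072 in MC38 cells and 368924 to 429034 in skin. In tumors they were 20280.2 to 53385 in wild-type mice and 14534 to 41016 in those labelled RAG1-/-. The MC38 sums included Col3a1 (4040 and 3336) and Pdgfra (1220 and 1250), so these markers are not of fibroblasts alone here. Of the 12 markers 4 had at most 3 reads in both MC38 libraries. Their part in the tumor level was not tested.

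**Figure D3:**
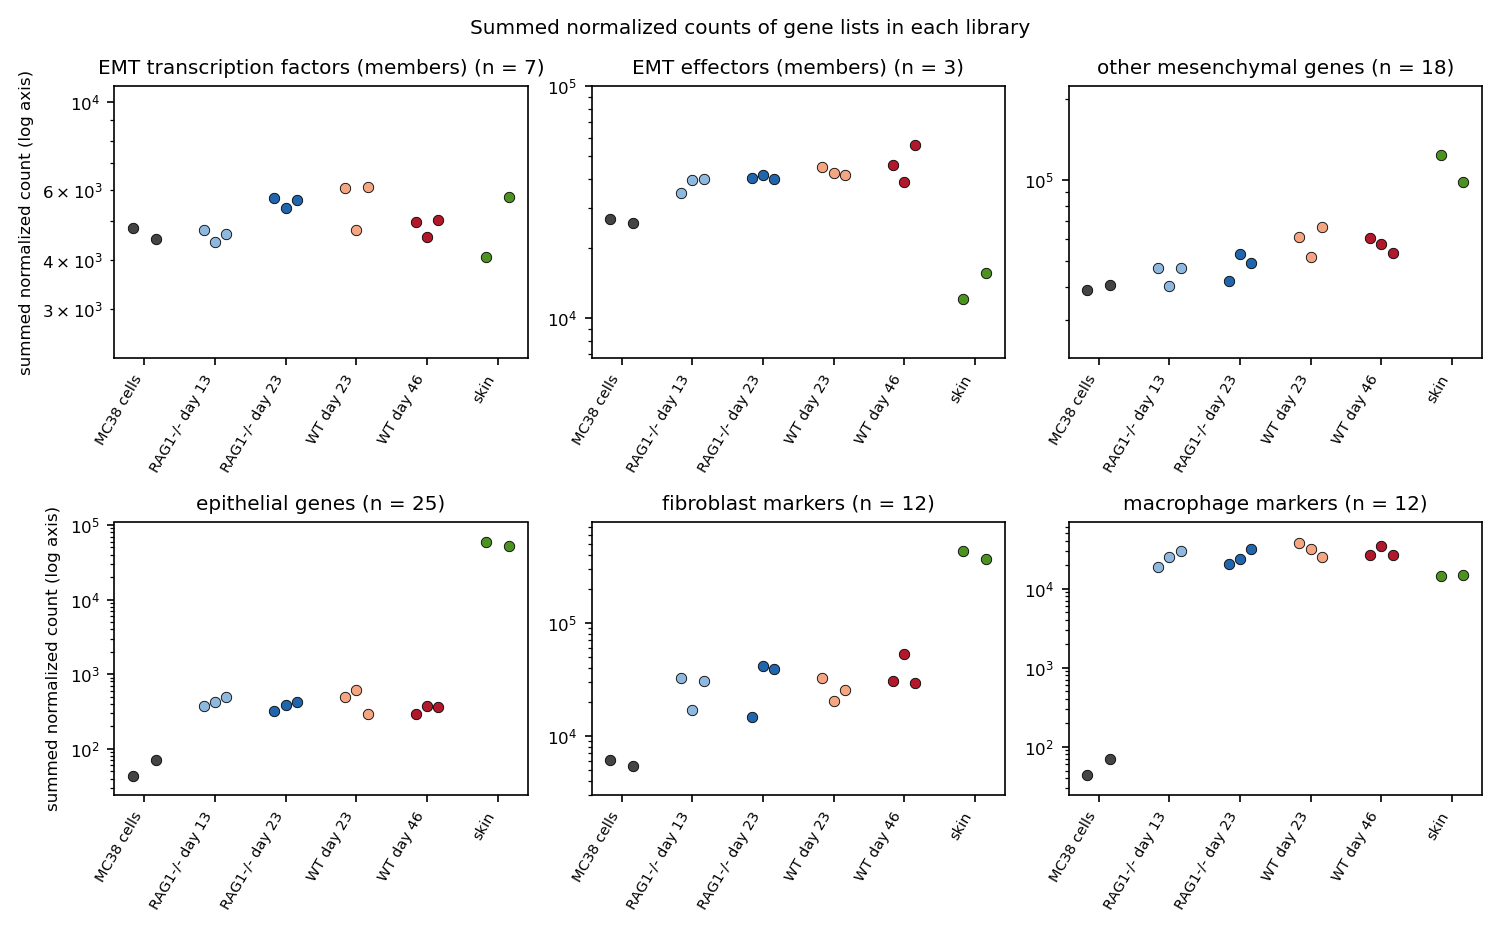
Summed normalized counts (log axis) of 6 gene lists in each library, by group. Epithelial genes sum to 43.6 to 70.4 in MC38 cells, 296 to 611 in tumors and 51881 to 60021 in skin. Spint1 alone gives 189.6 to 425 of the tumor sums. The 7 EMT transcription factors sum to 4054 to 6105 over all 16 libraries.

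Other genes of the program were counted beside the 10. Against skin, 7 of 11 tested EMT-associated transcription factors were higher in MC38 cells and 3 lower, where 20.8% and 41.2% of all genes were. Among the higher were Foxc2, a forkhead factor (2.77 ± 0.25, adjusted p = 0.000809, limma) and Etv4, an ETS factor (2.14 ± 0.41, adjusted p = 0.00844). Snai3, the third SNAI gene, had no reads in MC38 cells and a mean of 23.7 in skin. In tumors 3 of 10 were lower than in MC38 cells in wild-type mice and 2 in those labelled RAG1-/-, with none higher. These were Prrx2, Foxc1 and, in wild-type mice, Foxc2. Of all genes 9.61% were lower and 18.3% higher in wild-type tumors, and 7.55% and 15.8% in those labelled RAG1-/-. Prrx2, the relative of Prrx1, fell from a mean of 318 to 154 in wild-type tumors and 78.8 in those labelled RAG1-/- (adjusted p = 0.0236 and 0.000129, limma). Against skin 7 of 10 were higher in each kind of tumor, and 2 and 1 were lower. Of all genes 22.8% and 23.9% were higher there, and 34.2% and 35.9% lower.

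Of 18 other mesenchymal genes, 4 were higher and 11 lower in MC38 cells than in skin, where 20.8% and 41.2% of all genes were. In wild-type tumors 14 were higher than in MC38 cells and none lower, where 18.3% and 9.61% of all genes were. In those labelled RAG1-/- 13 were higher and 1 lower, where 15.8% and 7.55% of all genes were. Tnc, the matrix protein tenascin C, had no reads in MC38 cells and stood at 96.3 to 405 in 5 wild-type tumors, 755 in replicate 2 of day 46, and 63.2 to 622 in those labelled RAG1-/-. Mmp2, a matrix metalloproteinase, rose from 9.41 and 10.8 in MC38 cells to 449.9 to 802 in 5 wild-type tumors and 3320.0 in replicate 3 of day 46, and to 145 to 1175 in those labelled RAG1-/- (adjusted p = 1.56e-07 and 2.74e-06, limma). Wild-type tumors held 7 of the 18 above skin and 8 below it, where 22.8% and 34.2% of all genes were. Those labelled RAG1-/- held 7 above and 10 below, where 23.9% and 35.9% of all genes were. Of the 18, 4 had at most 3 reads in both MC38 libraries, so MC38 cells showed part of the list only.

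The epithelial genes were low in tumors too. All 23 of the 25 that could be tested were lower than in skin in wild-type tumors and in those labelled RAG1-/-. Of all genes 34.2% and 35.9% were lower there. Median log2 fold changes of the 23 were -7.17 and -7.70, and the summed level of the 25 was 296 to 611 and 319 to 489. Against MC38 cells, 7 could be tested and 2 were higher in each, where 18.3% and 15.8% of all genes were. Cdh1 stood between 7.92 and 50.4 in tumors (3.80 ± 0.57 over MC38 cells in wild-type mice, adjusted p = 5.07e-05, limma). Spint1, a serine protease inhibitor of epithelia, had no reads in MC38 cells and stood between 189.6 and 425 in tumors. It was at least 104-fold higher in wild-type mice and at least 109-fold in those labelled RAG1-/-. This is against a floor of 3 reads averaged over both MC38 libraries (2.75 normalized counts). Spint1 was the largest part of the summed epithelial level in each tumor.

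Host genotype was compared next, pooling both days of each. Wild-type tumors were of days 23 and 46 and the others of days 13 and 23, so that genotype and age of the tumor cannot be told apart except at day 23. Here 0 of the 10 EMT genes passed, where 0.712% of 14746 genes were called in either direction (limma). At an unadjusted p under 0.05 there were 3, where 1682 of all 14746 genes were. By edgeR and DESeq2 on the recovered reads there were 0, where these called 0.753% and 1.93% of all genes. The 3 at an unadjusted p under 0.05 were Fn1, at 0.78 ± 0.25 (SE), adjusted p = 0.217 (1.71-fold), Snai2, at 0.66 ± 0.23 (SE), adjusted p = 0.257 (1.58-fold), and Zeb1, at 0.33 ± 0.12 (SE), adjusted p = 0.279 (1.25-fold). Exact permutation p, not adjusted, was 0.0368, 0.0195 and 0.0325 with 6 tumors against 6, where the smallest possible is 0.00216. All 3 overlapped between the genotypes. For Vim the difference was -0.033 with a 95% interval of -0.28 to 0.22, and for Twist1 -0.040 with an interval of -0.31 to 0.23. At day 23 alone 0 of 10 passed, where 0.278% of genes did. By edgeR and DESeq2 0 of 10 passed, where these called 0.149% and 1.62% of all genes. At an unadjusted p under 0.05 there were 2 of the 10, where 1646 of all 14746 genes were. The 2 were Snai1 (0.66, adjusted p = 0.374, limma) and Prrx1 (-0.41, adjusted p = 0.446). Of the other lists, in the comparison over both days, 1 of 6 pericyte and 4 of 5 T cell markers were called, and 0 of the epithelial, mesenchymal, fibroblast, macrophage, endothelial, keratinocyte, muscle and adipocyte genes. With 3 against 3 an exact permutation test cannot go below 0.1.

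Over time, 0 of the 10 genes passed in wild-type tumors from day 23 to day 46, and 0 in those labelled RAG1-/- from day 13 to day 23, by limma, where 0% of all genes passed in each. At an unadjusted p under 0.05 there was 1 of the 10 in each, where 1261 and 1722 of all 14746 genes were. In wild-type tumors it was Twist2, at -0.58 ± 0.24 (SE), adjusted p = 0.528, whose groups did not overlap (528 to 602 at day 23 and 236 to 524 at day 46). Without replicate 3 of day 46 it was -0.25, adjusted p = 0.787 (limma). By edgeR and DESeq2 0 of the 10 passed there, where they called 0% and 0.292% of all genes. Zeb1 did not overlap either, at 688 to 718 on day 23 and 781 to 912 on day 46 (0.30 ± 0.17 (SE), adjusted p = 0.642). Exact permutation p was 0.1 for both, the smallest possible with 3 against 3. The share of all genes that do not overlap was not counted. In tumors labelled RAG1-/- the 1 at an unadjusted p under 0.05 was Prrx1, at 0.94 ± 0.19 (SE), adjusted p = 0.167 (1.92-fold). It stood at 899 to 1054 on day 13 and 1426 to 2427 on day 23. Twist2 and Cdh2 did not overlap between these days either (-0.34 and -0.30, adjusted p = 0.620 and 0.770, limma). For these and Prrx1 exact permutation p was 0.1, again the smallest possible with 3 against 3. Since non-overlap was not counted over all genes, nothing particular to the EMT genes is read from it. By edgeR 0 passed (0% of all genes). DESeq2 on the recovered reads called Prrx1 (0.97, adjusted p = 0.00273) among 206 genes, 1.40% of those tested. Its change over time differed between the genotypes by -1.20 ± 0.27 (SE), adjusted p = 0.269 (limma), where 0 of 10 EMT genes and 0% of all genes passed. At an unadjusted p under 0.05 there was 1 of the 10, where 1279 of all 14746 genes were. By edgeR 0 of the 10 passed, and by DESeq2 1, Prrx1 (-1.27, adjusted p = 0.0109). There edgeR called 0% and DESeq2 0.393% of all genes, 58 in number. The days differ between the genotypes, so day and genotype cannot be told apart there. Summed skeletal muscle markers were at 8953, 370.3 and 9301 in the 3 tumors of day 13 and 68.1 to 91.5 in those of day 23, and their part in the Prrx1 difference was not tested.

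**Figure D4:**
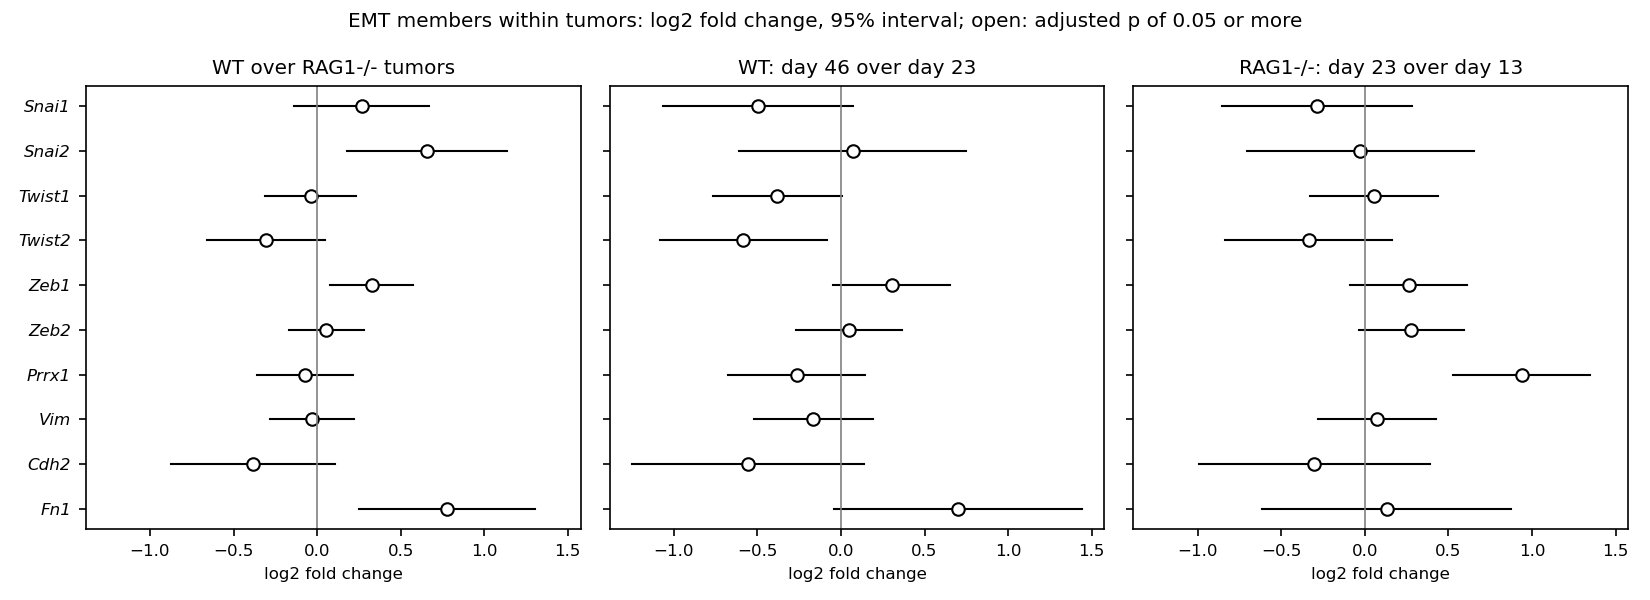
log2 fold change of each gene with its 95% interval for wild-type tumors over those labelled RAG1-/-, wild-type tumors of day 46 over day 23, and tumors labelled RAG1-/- of day 23 over day 13. All points are open, meaning that none passed an adjusted p of 0.05 (limma), and Prrx1 in the right panel is at 0.94.

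The levels of the 10 genes were also set against host cell markers over the 12 tumors, as log2(normalized count + 1) against the mean log2 level of 12 fibroblast and 12 macrophage markers, 20 relations in all. Pearson's r ran from -0.51 to 0.37, 0 of 20 had a permutation p under 0.05 before adjustment by Pearson's r or Spearman's rho, and the lowest adjusted p was 0.907 for r and 0.865 for rho (100000 resamples, Benjamini-Hochberg over the 20). Prrx1 against fibroblast markers had r = -0.51 (permutation p = 0.0872, adjusted 0.907) and rho = -0.36 (permutation p = 0.255, adjusted 0.865), and r = -0.17 without the 2 tumors farthest from the median. Fn1 had r = 0.14 against fibroblast markers and r = 0.072 against macrophage markers. Zeb2 against macrophage markers had r = -0.29, and -0.44 within groups. After removal of the group means, Twist1 against fibroblast markers had r = 0.82 (permutation p = 0.00129, adjusted 0.0258), where r over all tumors was 0.22, and the permutations do not allow for the removed means.

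Among 12068 genes that averaged 20 or more normalized counts in the tumors, those whose pattern over 12 tumors was most like each EMT gene were named by Pearson's r, as a description with no test. For Snai1 they were Ptms, Dtx3l and Psmb8 (r = 0.96, 0.92 and 0.90). For Snai2, Ackr3 and Ptpn22 are given (r = 0.94 and 0.90). For Twist1 they were Dnajb9, Timmdc1 and l7Rn6 (r = 0.92, 0.91 and 0.90), and for Twist2 Vcpkmt, Eef1b2 and Cacybp (r = 0.96, 0.95 and 0.94). For Zeb1 they were Mcoln1, Creb5 and Fkbp1b (r = 0.96, 0.89 and 0.89), and for Zeb2 Fnbp4, Rhoq and Lhfpl2 (r = 0.84, 0.83 and 0.83). For Prrx1 they were Gcc2, Nedd4 and Ezh2 (r = 0.94, 0.89 and 0.87). For Vim they were Nme7, AI662270 and BC048403 (r = 0.86, 0.84 and 0.82), for Cdh2 Bad, Ddx50 and Ccr1 (r = 0.93, 0.90 and 0.90) and for Fn1 Tbc1d20, 5730559C18Rik and Tns1 (r = 0.94, 0.94 and 0.93). None of the 10 was among the 3 nearest genes of another.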

How the data were processed

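RNA was measured in 22 libraries, of which 16 were used. Per the labels and the methods, the authors made 3′ tag libraries (QuantSeq) and read them on an Ion Proton. They then trimmed reads with Cutadapt and Trimmomatic, removed reads under 22 nucleotides, aligned to mm10 with STAR and Bowtie2, counted reads per gene with HTSeq and divided by DESeq2 size factors. Annotation, strand setting and tool versions are not given in the sources used here. These normalized counts, 1 per gene and library, are the deposited signal (46882 genes). It is not normalized for length, so values were compared between libraries only, for a gene or for the sum of a list. In each library 100% of values divided by the worth of 1 read gave whole numbers (tolerance 0.01). This recovered the reads, 5589151 to 26134241 a library. Floors cover counting error only. The intervals are those of the limma fits and rest on the spread between replicate libraries. The table of 6 libraries treated with antibody was not used here, since its columns match no label.

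Comparisons were tested with limma 3.58.1 (R 4.3.3) using a mean-dependent trend on log2(normalized count + 1). Genes entered if they averaged 5 or more over the libraries in the fit (4 for MC38 against skin, 12 for tumors, 14 for tumors with MC38 or with skin). The tests were two-sided, with Benjamini-Hochberg over all genes tested and a threshold of 0.05. The pseudocount understates changes of low genes. edgeR 4.0.16 and DESeq2 1.42.0 ran on the recovered reads as alternatives. Exact and permutation tests used scipy 1.17.1. Further settings tried were 0.1 or 5 as the pseudocount, no filter or one of 20, the same upper quartile or total, no trend, all 16 libraries, a replicate block and leaving out each library. Reads were simulated with 200 genes changed and the same spread setting for every gene, so recovery in the data may differ. For wild-type against RAG1-/- tumors limma recovered 75.0% of genes changed 2-fold and 99.0% of those changed 4-fold (14720 genes tested). The shares were 27.0% and 89.8% for the same at day 23 (14713), and 43.3% and 95.9% for wild-type tumors against MC38 (14676). For MC38 against skin they were 11.1% and 81.8% (16721).

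The members and lists were chosen with earlier results of these data known. Genes beside the 10 were named by rule: from each list up to 4 called genes per comparison whose libraries do not overlap, with the largest changes, then Cdh1 and Epcam, the 3 genes most like each member (1 of those for Snai2 is not reported here), and Rag1. Krt8, Krt18 and Crb3 fall outside it and were chosen after their values were seen. Replicate libraries differed by more than counting noise (chi-square per degree of freedom 8.42 to 87.2). Gene positions come from GENCODE M21 on GRCm38, the build of mm10, and promoters from RefSeq on GRCm38.p6.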

Additional observations from a re-analysis of the deposited data

Results flagged for a closer look

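Fn1 in wild-type tumor replicate 3 of day 46 stood at 28825 normalized counts, and the other 5 wild-type tumors at 7393 to 14383. Its gap to the nearest tumor was 0.674 of the range of the 6, past Dixon's limit for 6 samples. The gap was taken on normalized counts, not on log2 values, and the flag may depend on that scale. Fn1 in wild-type tumors was the only one of 20 gene and genotype combinations of 6 tumors so flagged, and chance flags about 1 in 20. Without this tumor Fn1 in wild-type tumors over those labelled RAG1-/- was 0.55 on the log2 scale (limma, adjusted p = 0.261), against 0.78 with it. Over MC38 cells the wild-type value was 3.32 without it. The same tumor had the lowest Twist2 (236) of all 12 and the second-highest Snai1 (1123).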

How the results depend on the processing

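Of 34 calls of an EMT gene in a comparison, 16 held in every alternative run. Among them were Twist2 and Fn1 in tumors against MC38 cells and Snai1 and Vim in tumors against skin. The share of calls over all genes that held in this way is not given here. Whether 16 of 34 is particular to the EMT genes therefore cannot be told. 6 values reversed, none of a called gene. Prrx1 against skin was 0.083 in wild-type tumors with the same total, and in those labelled RAG1-/- 0.069 with the same upper quartile, 0.16 with the same total and -0.55 to 0.067 with each replicate left out (0.067 without skin replicate 2). With each replicate left out, wild-type tumors against skin gave -0.0064 to 1.63 for Cdh2 and -0.17 to 0.81 for Twist2, both lowest without skin replicate 1. In RAG1-/- tumors against MC38 cells, 5 genes were called, and 3 with no filter, with edgeR, with no trend and with the replicate block. Calls over all genes in these settings are not given here, so a loss particular to the EMT genes cannot be told from a general one. DESeq2 called 1 gene, Prrx1, in RAG1-/- tumors over time and 1 in the difference between genotypes, where limma called 0 (over all genes DESeq2 called 206 and 58, limma 0 and 0). Of the 20 marker relations, 0 passed, and 1 within groups. The cause of these changes was not tested.

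With each replicate left out in turn, genes called ranged from 3 to 6 for MC38 against skin, 3 to 7 for wild-type tumors and 3 to 5 for RAG1-/- tumors against MC38, and 6 to 7 and 5 to 9 against skin. Within tumors and for the marker relations the range was 0 to 0. Calls over all genes dropped in each left-out setting for which they are given above. A group left with 1 library is assumed to vary like the others.

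Deviations of same-numbered tumors from their group means had r from -0.28 to 0.37 over 18 pairs. Those of other-numbered tumors had r from -0.29 to 0.27 over 36. Of 12 tumors, 6 were most like one of their own number. No test was made, so whether the numbers pair tumors is not settled. With the replicate block the calls among the 10 EMT genes were 7 for MC38 against skin and 0 within tumors. For wild-type and RAG1-/- tumors they were 7 and 3 against MC38, and 7 and 9 against skin. Calls over all genes with the block are not given here. On simulated reads with 200 changed genes, 11.1% of 2-fold differences between MC38 cells and skin were recovered. In the data 10402 of 16780 genes were called there, so that rate need not carry over. Cdh2 in skin rests on 9 and 31 reads.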
